A study of Homo sapiens with 9 samples.

Results

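Knockout clone 2 is a line of KG-1a cells in which PRMT2 was edited with CRISPR/Cas9 and PRMT2-targeting crRNAs, and its transcriptome was set against that of wild-type KG-1a cells (WT). The libraries were taken by their labels: 3 of clone 2 and 3 of WT, which are 6 of the 9 libraries of the series. The other 3 libraries came from knockout clone 1, made in the same line, and serve here to test which differences separate clone 2 from that clone. KG-1a is an established human acute myeloid leukaemia line. All groups were grown in RPMI 1640 with 20% fetal bovine serum and received no drug. The measurement was paired-end sequencing of total RNA, read as counts of read pairs per gene. Each group is 1 line, and the labels do not say whether the WT cells came from a single cell, where in PRMT2 the edits lie, or whether the 3 replicates were separate cultures. The p-values therefore measure only the spread between these samples, and loss of PRMT2 and the descent of clone 2 from 1 cell cannot be told apart in this comparison.

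PRMT2 belongs to the protein arginine methyltransferases, enzymes that place methyl groups on arginine residues of histones and other proteins and so act on transcription, splicing and signalling. PRMT2 carries an SH3 domain, methylates weakly on its own, and is known as a coactivator of nuclear receptors and a writer of asymmetric methylation on histone H3. KG-1a cells are immature, express the progenitor antigen CD34 and hold little of the differentiation programme of granulocytes or monocytes.

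Counted read pairs numbered 38282761, 40554236 and 32542001 in WT and 41463714, 37745011 and 43149410 in clone 2. Mitochondrial mRNA and rRNA took 3.13% to 3.38% of counts in WT and 3.13% to 3.58% in clone 2. Of the line's markers, CD34, SPN (CD43) and LYL1 were well expressed in both groups. CD34 was at 640, 612 and 624 CPM (a gene's share of the counts of its library, scaled to a common total) in WT and 791, 749 and 754 CPM in clone 2. SPN was at 924, 899 and 917 CPM in WT and 862, 874 and 893 CPM in clone 2. LYL1 was at 146, 132 and 139 CPM in WT and 174, 183 and 188 CPM in clone 2. Of myeloid markers, MPO was too rare to be tested and CD33 was under 1 CPM in all 6 libraries. Clone 1 replicate 1 stood apart, with a multimapping share of 13.33%, where the other 8 libraries had 3.86% to 4.51%.

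PRMT2 RNA was lower in clone 2 and was not absent. PRMT2 (chr21:46635595-46665124; all gene positions are GRCh38, from GENCODE release 44) was at 39.4, 39 and 39.8 CPM in the 3 WT libraries and 21.4, 21.1 and 21.2 CPM in the 3 clone 2 libraries. The groups did not overlap (log2 fold change -0.89 ± 0.054 (SE), adjusted p 1.51e-17), as in 40.5% of all tested genes, and the fall was under the log2 fold change of 1 that the series text asks of a called gene. Clone 1 held 21.3, 20.2 and 20.7 CPM, and the clones differed by 0.04 (adjusted p 0.708) on the log2 scale. A count over a whole gene does not show whether the remaining RNA encodes an intact protein. Among the other arginine methyltransferases, PRMT5, which makes symmetric dimethylarginine, rose by 0.22 (adjusted p 8.89e-06) and PRMT6, a nuclear histone methyltransferase, by 0.21 (adjusted p 0.00043). PRMT1, the main enzyme of asymmetric dimethylation, was at 255, 229 and 250 CPM in WT and 242, 238 and 247 CPM in clone 2, and its groups overlapped. PRMT3, CARM1, PRMT7 and PRMT9 had log2 fold changes of 0.03, 0.06, -0.05 and 0.02 with adjusted p from 0.302 to 0.862.

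Far more genes were called lower than higher in clone 2. To be called, a gene needed an adjusted p under 0.05 in edgeR's quasi-likelihood test (Benjamini-Hochberg) and a log2 fold change of 1 or more in either direction. Of 20655 genes tested, 1232 (5.96%) were called, 379 higher (1.83%) and 853 lower (4.13%). Below, "rose" and "fell" are used of any gene with an adjusted p under 0.05, and "called" of those that also passed the fold. At that adjusted p alone 2966 genes (14.4%) rose and 3327 (16.1%) fell, so the excess of falls lay among the called genes. The median log2 fold change over all tested genes was 0. The genes called lower made up 0.946% to 0.953% of all counts in WT and 0.282% to 0.284% in clone 2, and the genes called higher 0.141% in each WT library and 0.413% to 0.42% in clone 2. Called genes were mostly rare transcripts. Among genes with a mean under 0.5 CPM, 3.99% were called higher and 7.61% lower, and among genes over 100 CPM 0.161% and 0.242%.

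**Figure D1:**
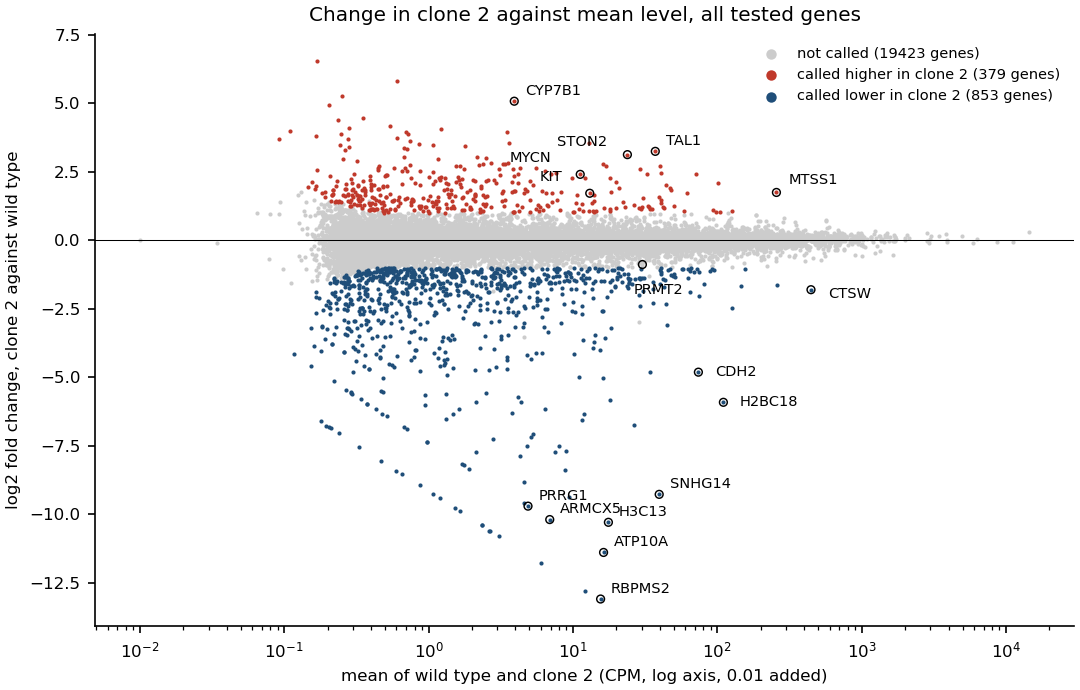
Each point is 1 of 20655 tested genes, with the mean level of WT and clone 2 in CPM on a log x axis and the log2 fold change of clone 2 against WT on the y axis; called genes are coloured and 16 named genes are ringed. The downward tail reaches past -10 for genes at low to moderate level, and the highest named rise, CYP7B1, is at 5.07.

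The largest falls in clone 2 were near-complete losses of transcripts that were well expressed in WT. At 5 CPM or more in WT, 31 genes with a symbol were under 0.3 CPM in clone 2, and 12 of them had at most 3 counts over the 3 clone 2 libraries together. CYP7B1 was the 1 gene that went the other way at the same cuts. RBPMS2 (chr15:64739891-64775589), an RNA-binding protein with an RNA recognition motif, was at 32, 29.4 and 31.8 CPM in WT, and not 1 read pair of it was counted in any clone 2 library, which puts it at least 1250-fold lower against a floor of 3 counts over the group. NEURL1 (chr10:103493705-103592546), a ubiquitin ligase of the neuralized family that acts on NOTCH ligands, was at 12.5, 12.3 and 11.5 CPM in WT and likewise uncounted in clone 2, and lay at least 491-fold lower. ATP10A (chr15:25677273-25865184), a flippase that moves phospholipids to the inner leaflet of membranes, was at 33.4, 32.4 and 32 CPM in WT and had 1 count in clone 2, and the WT level was 3960 times (95% counting interval 711 to 157000) that of clone 2. Counting error is all that these bounds and intervals cover, and read pairs without molecular identifiers are not independent molecules.

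Among the 12 were membrane proteins that carry or handle small molecules. SLC30A4, which exports zinc from the cytosol, was at 4.62, 5.58 and 5.73 CPM in WT, held 0 counts in every clone 2 library and lay at least 214-fold lower. SLC16A10, a carrier of aromatic amino acids, was at 5.29, 4.85 and 5.52 CPM against 0 counts and lay at least 210-fold lower. CNNM1, of a membrane family tied to metal ion transport, was at 9.81, 9.02 and 8.47 CPM and 2 counts, a ratio of 555 times (95% counting interval 153 to 4590). The 12 also held a transcription factor, NFE2L3, and a histone gene, H3C13. NFE2L3, a basic leucine zipper factor of the cap'n'collar family, was at 8.4, 9.65 and 9.27 CPM in WT and 1 count in clone 2 on its own strand, a ratio of 1110 times (95% counting interval 198 to 43800); counted without regard to strand its log2 fold change was -0.62 and it was not called, so its loss is read on 1 strand only. KLF3, a repressor of the Krüppel-like family that kept 4 counts, was at 8.27, 8.51 and 8.94 CPM in WT and 0, 0.08 and 0.0234 CPM in clone 2. H3C13, a gene of histone H3, was at 34.5, 33.4 and 37.5 CPM in WT and 0.0242, 0.0534 and 0 CPM in clone 2, a ratio of 1420 times (95% counting interval 485 to 6880).

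Histone genes have close copies, and STAR leaves pairs that map to several places out of the gene counts, so the levels of single histone genes are uncertain. The neighbouring H2BC18, a gene of histone H2B, was called as well: it was at 213, 213 and 226 CPM in WT and 3.37, 3.07 and 4.28 CPM in clone 2 (log2 fold change -5.92 ± 0.062 (SE), adjusted p 1.53e-38). The lncRNA LINC00869 beside them went from 5.5, 6.22 and 5.73 to 0.267, 0.534 and 0.725 CPM (log2 fold change -3.50 ± 0.2 (SE), adjusted p 2.49e-18). Of other histone genes in that cluster, H4C14 fell by 0.86 (adjusted p 4.54e-12), while H3C14 had a log2 fold change of -0.05 (adjusted p 0.905) and H2BC21 of 0.36 (adjusted p 0.0658).

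**Figure D2:**
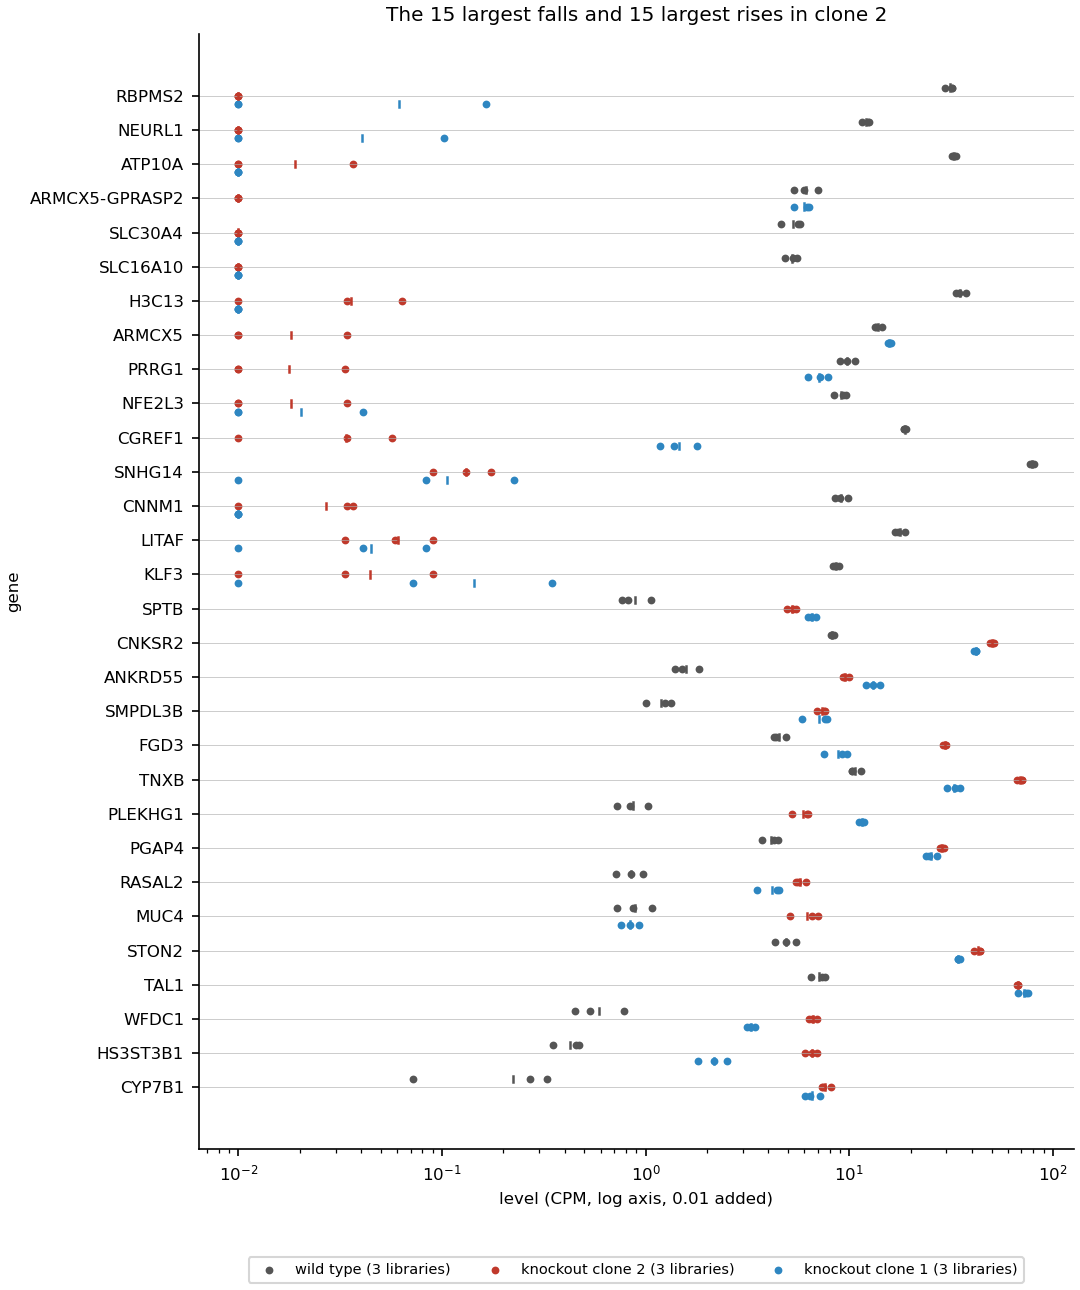
Levels in CPM (log x axis, 0.01 added) of the 15 largest falls and 15 largest rises among called genes of at least 5 CPM in the higher group, with 1 point for each library and a short line at each group mean. Genes were taken only where the WT and clone 2 libraries did not overlap. All but a few of the 30 genes lie in clone 1 near the clone 2 level. ARMCX5, ARMCX5-GPRASP2, PRRG1 and MUC4 lie in clone 1 near the WT level.

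The stretch before the annotated start is shown for 2 genes that clone 2 lost to 0 counts, for PRRG1, which it lost and clone 1 kept, and for 2 genes that it gained, to show the CG pairs that are counted over all such windows below. The sequences are from RefSeq (GRCh38.p14), 5′ to 3′ on the gene's strand, with each CG pair in capitals. They hold up to 250 bases and were kept clear of annotated exons, which shortened those of PRRG1 and KIT. They lie at chr15:64775590-64775839, minus strand (RBPMS2), chr10:103493455-103493704, plus strand (NEURL1), chrX:37349114-37349308, plus strand (PRRG1), chr1:47232336-47232585, minus strand (TAL1) and chr4:54657707-54657888, plus strand (KIT).
RBPMS2: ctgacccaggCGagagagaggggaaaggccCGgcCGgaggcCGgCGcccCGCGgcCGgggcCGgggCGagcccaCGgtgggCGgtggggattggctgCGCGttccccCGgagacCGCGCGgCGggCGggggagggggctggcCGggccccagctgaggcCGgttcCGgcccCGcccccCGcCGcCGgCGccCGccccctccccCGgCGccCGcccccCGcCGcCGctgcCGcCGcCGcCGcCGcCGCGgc
NEURL1: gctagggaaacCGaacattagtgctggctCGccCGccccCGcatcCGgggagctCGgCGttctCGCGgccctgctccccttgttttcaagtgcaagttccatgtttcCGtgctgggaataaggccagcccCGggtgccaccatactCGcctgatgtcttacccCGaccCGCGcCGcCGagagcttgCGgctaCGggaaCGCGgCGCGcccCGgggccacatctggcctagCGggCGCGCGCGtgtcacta
PRRG1: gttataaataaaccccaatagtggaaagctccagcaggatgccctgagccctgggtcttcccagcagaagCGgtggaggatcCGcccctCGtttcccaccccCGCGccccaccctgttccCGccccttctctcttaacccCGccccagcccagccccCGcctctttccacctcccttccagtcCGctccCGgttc
TAL1: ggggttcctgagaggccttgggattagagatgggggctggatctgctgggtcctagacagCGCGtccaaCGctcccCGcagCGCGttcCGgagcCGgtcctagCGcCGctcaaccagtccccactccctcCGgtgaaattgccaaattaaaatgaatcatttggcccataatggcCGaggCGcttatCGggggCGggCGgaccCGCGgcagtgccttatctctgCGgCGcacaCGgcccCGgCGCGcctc
KIT: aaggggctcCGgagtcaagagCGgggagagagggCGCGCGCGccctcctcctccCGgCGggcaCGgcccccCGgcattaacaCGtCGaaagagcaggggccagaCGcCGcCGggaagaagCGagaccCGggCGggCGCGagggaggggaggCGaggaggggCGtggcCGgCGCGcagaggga
All 5 are rich in CG: RBPMS2 holds 42 in 250 bases, NEURL1 29 in 250, PRRG1 10 in 195, TAL1 24 in 250 and KIT 25 in 182. CG reads the same on both strands. At least 10 CG in the 250 bases before the start were found for 51.9% of all 27305 promoters in the RefSeq table. Of genes at 5 CPM or more in WT, 87.7% of the 7954 not called passed that mark, against 65.1% of the 186 called lower and 80.0% of the 40 called higher. Among the 27 of these with less than 0.3 CPM in clone 2 it was 77.8%. The match covered 10260 of 12754 tested protein-coding genes (80.4%) and is a description of the windows only.

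In a region of chromosome 15 known for imprinting, SNHG14, SNRPN and ATP10A were called lower, and UBE3A, MKRN3 and HERC2 near them were not. SNHG14, the long non-coding host of a cluster of small nucleolar RNAs, was at 77.3, 80.7 and 79.2 CPM in WT and 0.121, 0.08 and 0.164 CPM in clone 2 (log2 fold change -9.28 ± 0.13 (SE), adjusted p 9.87e-36). SNRPN, a paternally expressed gene of a splicing protein, was at 2.84, 3.39 and 3.64 CPM in WT, was not counted in clone 2 and lay at least 133-fold lower. ATP10A, given above, lies on the far side of UBE3A. UBE3A itself, a ubiquitin ligase, was at 267, 275 and 277 CPM in WT and 300, 311 and 304 CPM in clone 2, a rise of 0.16 (adjusted p 0.000175). MKRN3 was at 30.4, 29.2 and 29.6 CPM in WT and 28.6, 27.7 and 27.9 CPM in clone 2 and HERC2 at 146, 152 and 155 CPM in WT and 157, 156 and 159 CPM in clone 2, with log2 fold changes of -0.08 (adjusted p 0.243) and 0.06 (adjusted p 0.174). SNURF, which shares the SNRPN locus, was too rare to be tested, with 31 counts over the WT libraries and 0 over those of clone 2. On the other side of MKRN3 lay changes both ways, looked up after their values were seen: NIPA1, a magnesium transporter, had means of 9.62 CPM in WT and 0.0473 CPM in clone 2 (adjusted p 1.94e-25), and CYFIP1, a regulator of actin and translation, rose from 12.3 to 27.4 CPM (adjusted p 1.15e-19). In clone 1 SNHG14 was at 0.0732, 0 and 0.215 CPM and SNRPN at 0 counts; that comparison shares its WT libraries with the one of clone 2.

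Among the deep falls were also a metabolic enzyme and a gene of early lymphoid cells. PHGDH, the first enzyme of serine synthesis, was at 10.8, 10.7 and 10.1 CPM in WT and 0.0485, 0.0534 and 0.117 CPM in clone 2 (log2 fold change -7.09 ± 0.22 (SE), adjusted p 3.42e-27). DNTT, the polymerase that adds untemplated bases to antigen receptor joints, went from 8.11, 7.95 and 8.26 to 0.0727, 0.213 and 0.164 CPM (log2 fold change -5.74 ± 0.22 (SE), adjusted p 3.13e-23). LITAF, a protein of late endosomes, went from 16.8, 17.4 and 18.8 to 0.0485, 0.08 and 0.0234 CPM (log2 fold change -8.38 ± 0.22 (SE), adjusted p 2.79e-30). SMPDL3A, a phosphodiesterase related to acid sphingomyelinase, was at 2.76, 1.83 and 1.82 CPM in WT, was absent from the clone 2 counts and lay at least 86.9-fold lower. GJA1, a connexin of gap junctions, kept a trace: 32.5, 30.5 and 31.5 CPM in WT and 0.97, 0.907 and 1.01 CPM in clone 2 (log2 fold change -5.03 ± 0.11 (SE), adjusted p 4.86e-33).

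The 10 most abundant genes called lower included a protease, an inhibitor of BMP signals and a cadherin. CTSW, cathepsin W, a protease of cytotoxic lymphocytes, was at 725, 642 and 714 CPM in WT and 198, 199 and 197 CPM in clone 2 (log2 fold change -1.81 ± 0.046 (SE), adjusted p 1.04e-21). SMAD6, an inhibitor of BMP signalling, went from 404, 390 and 382 to 122, 127 and 131 CPM (log2 fold change -1.63 ± 0.032 (SE), adjusted p 3.62e-34). CDH2, N-cadherin, went from 138, 141 and 149 to 4.82, 5.07 and 5.24 CPM (log2 fold change -4.82 ± 0.054 (SE), adjusted p 7.51e-43). In each of the 3 all clone 2 libraries lay far below all WT libraries, and replicates differed by little. SLC27A2, which imports and activates fatty acids, and SHANK2, a scaffold known from synapses, had means of 222 and 213 CPM in WT and 69.2 and 38.3 CPM in clone 2. SEL1L3, GRAMD1B, a carrier of cholesterol between membranes, SCRN1 and NEDD9, a docking protein of adhesion signalling, were called lower with log2 fold changes from -1.62 to -1.05. The natriuretic peptide receptor NPR3 went from 67.4, 68.6 and 62.1 to 2.45, 2.05 and 2.59 CPM (log2 fold change -4.80 ± 0.08 (SE), adjusted p 9.8e-37). ENG, a co-receptor of TGF-beta and BMP ligands, went from 121, 116 and 122 to 30.1, 27.9 and 28.5 CPM (log2 fold change -2.05 ± 0.041 (SE), adjusted p 5.53e-34).

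A sterol enzyme and a blood transcription factor were among the largest rises. CYP7B1, an oxysterol hydroxylase, was at 0.261, 0.317 and 0.0616 CPM in WT and 7.3, 8.16 and 7.39 CPM in clone 2 (log2 fold change 5.07 ± 0.21 (SE), adjusted p 2.4e-23). TAL1, a basic helix-loop-helix factor of blood stem cells, erythroid cells and megakaryocytes, went from 6.47, 7.36 and 7.55 to 67.5, 66.9 and 67.5 CPM (log2 fold change 3.24 ± 0.058 (SE), adjusted p 7.5e-36). STON2, an adaptor of endocytosis, went from 4.33, 5.48 and 4.9 to 43.6, 40.8 and 43.9 CPM (log2 fold change 3.12 ± 0.071 (SE), adjusted p 2.51e-32). All 3 clone 2 libraries lay above all 3 WT libraries in each case, which the choice of these genes required. HS3ST3B1, a heparan sulfate sulfotransferase, had a mean of 0.415 CPM in WT and 6.52 CPM in clone 2. WFDC1, of the whey acidic protein family, had means of 0.577 and 6.61 CPM. MYCN, a paralogue of MYC, went from 3.65, 3.68 and 3.39 to 19, 18 and 19.7 CPM (log2 fold change 2.40 ± 0.088 (SE), adjusted p 7.84e-25).

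Others of the 15 largest rises act on small GTPases. CNKSR2, a scaffold of RAS signalling, went from 8.37, 8.21 and 8.13 to 51.2, 48.9 and 50.8 CPM (log2 fold change 2.61 ± 0.057 (SE), adjusted p 6.04e-33). RASAL2, a RAS GTPase-activating protein, PLEKHG1, a guanine nucleotide exchange factor, and FGD3, an exchange factor of the CDC42 type, rose by 2.79, 2.77 and 2.70 on the log2 scale. PGAP4, which modifies glycosylphosphatidylinositol anchors, and SMPDL3B, a membrane phosphodiesterase, rose by 2.79 and 2.63. TNXB, the matrix protein tenascin X, rose by 2.70, with the reservation that it has a truncated copy nearby. SPTB, erythrocyte beta-spectrin, went from 0.809, 0.756 and 1.05 to 5.28, 5.44 and 4.93 CPM (log2 fold change 2.59 ± 0.16 (SE), adjusted p 1.13e-17), but without regard to strand its log2 fold change was 0.21 and it was not called.

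Among the 10 most abundant genes called higher was MTSS1, which binds actin and curved membranes, at 120, 120 and 116 CPM in WT and 408, 389 and 389 CPM in clone 2 (log2 fold change 1.74 ± 0.037 (SE), adjusted p 2.71e-33). MARCKS, a protein kinase C substrate at the membrane, went from 81.9, 80.2 and 84.2 to 164, 170 and 176 CPM (log2 fold change 1.05 ± 0.034 (SE), adjusted p 6.82e-27). SIPA1, a GTPase-activating protein of RAP, went from 38.1, 36.2 and 40.7 to 165, 161 and 164 CPM (log2 fold change 2.10 ± 0.039 (SE), adjusted p 9.16e-35). PTK2, focal adhesion kinase, and CACNA2D4, an auxiliary subunit of calcium channels, both rose by 1.03, and IGF2BP2, an mRNA-binding protein, by 1.11. ATP8A2, a flippase of another branch than ATP10A, went from 21.8, 22.9 and 22 to 119, 123 and 117 CPM (log2 fold change 2.42 ± 0.038 (SE), adjusted p 1.69e-37). PPP1R13B, of the ankyrin repeat family of apoptosis regulators, CDK2AP1, a regulator of CDK2, and the pseudogene CCDC162P rose by 1.73, 1.08 and 1.84.

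Which of these changes set clone 2 apart from clone 1 was tested directly between the clones. There, 582 genes (2.82%) were called, 327 higher in clone 2 (1.58%) and 255 lower (1.23%). At the adjusted p alone 2762 of 20655 tested genes were higher in clone 2 and 2593 lower. With a symbol and at least 5 CPM in the highest group, 33 genes were called lower and 11 higher in clone 2 against both WT and clone 1. Among them were neighbours on the long arm of chromosome X. ARMCX5 (chrX:102599168-102604159), of the armadillo repeat X-linked family, was at 13.5, 14.4 and 13.4 CPM in WT, 0.0242, 0 and 0 CPM in clone 2 and 15.4, 15.8 and 16 CPM in clone 1. GPRASP1 (chrX:102651092-102659083), which sorts G protein-coupled receptors to lysosomes, was at 5.79, 6.02 and 4.93 CPM in WT, 0, 0 and 0.0935 CPM in clone 2 and 5.42, 5 and 5.95 CPM in clone 1. GPRASP2, its paralogue, did not reach 5 CPM in any group and is not among those 33 genes. It was at 2.01, 2.1 and 1.63 CPM in WT, 0, 0 and 0.0234 CPM in clone 2 and 1.13, 1.77 and 2.09 CPM in clone 1. So 3 genes that clone 1 kept near the WT level were at or next to 0 counts in clone 2.

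The run of neighbouring called genes there held 6 members, the longest of any run, and the next tested gene on each side was not called. Neighbours here are consecutive tested genes at any distance, so the run does not show where on the DNA the loss ends. Its other members were the readthrough transcript ARMCX5-GPRASP2, which shares exons with ARMCX5 and GPRASP2 and so cannot be counted apart from them with certainty, the pseudogene BEND7P1 and a non-coding gene without a symbol. ZMAT1, the tested gene before the run, was at 14.9, 15.3 and 14.6 CPM in WT and 14.7, 14.9 and 14 CPM in clone 2 (log2 fold change -0.04 ± 0.07 (SE), adjusted p 0.731). LINC00630, the tested gene after it, was at 20.3, 21.2 and 18.4 CPM in WT and 25.1, 23.6 and 21.3 CPM in clone 2 (log2 fold change 0.22 ± 0.069 (SE), adjusted p 0.0114). Of family members a few genes away, ARMCX6 had a log2 fold change of -0.09 (adjusted p 0.351), ARMCX3 rose by 0.29 (adjusted p 0.00161) and ARMCX1 was called higher at 1.78 (adjusted p 2.12e-13). Whether the DNA of this stretch is intact in clone 2 was not tested.

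**Figure D3:**
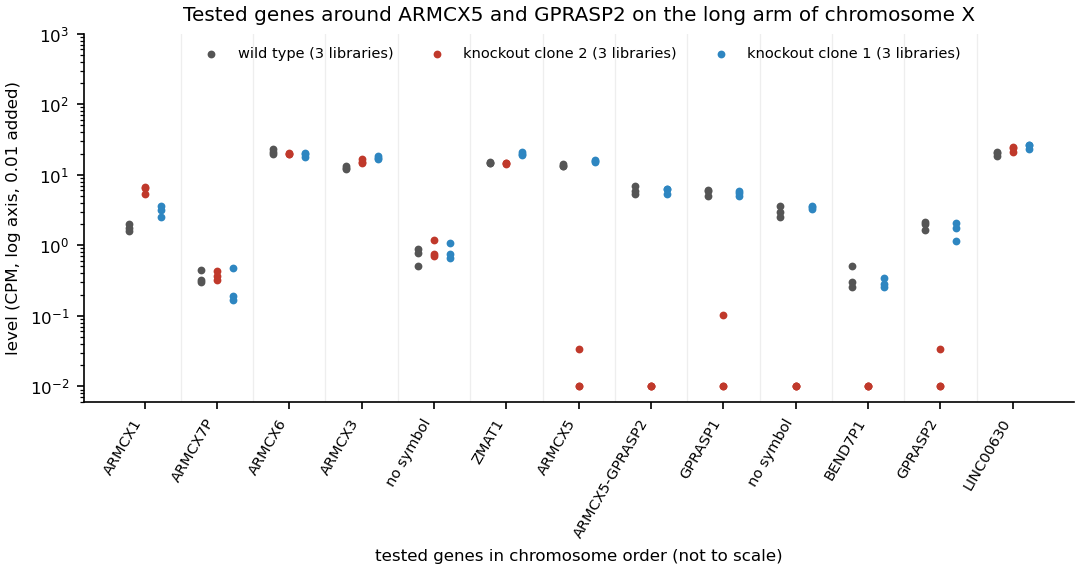
Levels in CPM (log y axis, 0.01 added) of 13 tested genes in their order along the long arm of chromosome X, with 1 point for each library of WT, clone 2 and clone 1. From ARMCX5 to GPRASP2 the clone 2 points lie at or next to 0 while those of WT and clone 1 lie together, and on both sides of that run all 3 groups lie close except at ARMCX1.

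PRRG1 (chrX:37349309-37457292), a membrane protein with gamma-carboxyglutamic acid residues on the short arm of the same chromosome, was at 9, 10.6 and 9.68 CPM in WT, 0, 0 and 0.0234 CPM in clone 2 and 7.87, 7.14 and 6.29 CPM in clone 1. Its WT level was 1190 times (95% counting interval 213 to 47000) that of clone 2, and the clones differed by -9.24 (adjusted p 6.94e-25). Beside it, XK was at 36.1, 37.3 and 37.9 CPM in WT and 33.6, 34.5 and 34.7 CPM in clone 2, and LANCL3 was called lower in clone 2 (log2 fold change -1.38, adjusted p 4.11e-17) and differed from clone 1 by 0.20 (adjusted p 0.139). KLF8, a Krüppel-like repressor, was at 0.939, 1.05 and 0.801 CPM in WT and 0.0485, 0 and 0 CPM in clone 2, with a log2 fold change of -5.14 (adjusted p 1.51e-08) against clone 1.

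Autosomal genes also lay below clone 1. CGREF1, a secreted protein with EF-hand motifs that was called lower in both clones, was at 18.6, 19 and 18.5 CPM in WT, 0.0242, 0 and 0.0468 CPM in clone 2 and 1.17, 1.37 and 1.78 CPM in clone 1. KLF11, a Krüppel-like factor downstream of TGF-beta, was at 6.55, 6.78 and 6.69 CPM in WT, 0.267, 0.267 and 0.234 CPM in clone 2 and 5.38, 4.66 and 5.37 CPM in clone 1. BEND4 was at 73.7, 71.2 and 74.3 CPM in WT, 15.3, 14.4 and 14.3 CPM in clone 2 and 93.8, 91.9 and 92.8 CPM in clone 1. For these 3 the difference between the clones was -5.69 (adjusted p 3.23e-15), -4.31 (adjusted p 3.58e-21) and -2.67 (adjusted p 5.04e-36). MYADM, a myeloid-associated membrane protein, fell by 3.72 against WT (adjusted p 2.57e-32) and had a log2 fold change of -4.18 (adjusted p 1.38e-33) against clone 1. HAVCR2, an inhibitory receptor of immune cells, and PRKCA, protein kinase C alpha, were called lower at -1.49 and -1.30 against WT and -1.46 and -1.34 against clone 1. The last 4 genes, BEND4, MYADM, HAVCR2 and PRKCA, were chosen after their values were seen.

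On the side of gain, KIT set clone 2 apart. KIT, the receptor of stem cell factor, was at 5.19, 5.46 and 7.83 CPM in WT, 20.4, 18.8 and 20.9 CPM in clone 2 and 7.8, 7.14 and 5.92 CPM in clone 1 (log2 fold change 1.71 ± 0.12 (SE), adjusted p 1.18e-11 against WT). Against clone 1 its log2 fold change was 1.53 (adjusted p 2.66e-10), and clone 2 overlapped neither of the other groups. Clone 2 and WT did not overlap in 40.5% of all tested genes. PDGFRA, its neighbour on chromosome 4 and a receptor kinase of the same family, was lower in level but moved alike, from 0.73, 1.44 and 0.832 CPM in WT to 2.93, 2.88 and 3.62 CPM in clone 2 (log2 fold change 1.63 ± 0.2 (SE), adjusted p 1.39e-08), with 0.403, 0.497 and 0.43 CPM in clone 1. KDR, the next tested gene after KIT, was under 0.5 CPM in all 6 libraries and had a log2 fold change of 0.84 (adjusted p 0.237) against WT. Against clone 1, where it was at 0.0732, 0.031 and 0 CPM and so near the floor, it was called higher at 3.16 (adjusted p 0.00124). CHIC2, before PDGFRA, had log2 fold changes of -0.09 (adjusted p 0.415) against WT and -0.24 (adjusted p 0.0114) against clone 1. MUC4, a membrane mucin, was at 1.07, 0.853 and 0.709 CPM in WT, 6.98, 5.12 and 6.55 CPM in clone 2 and 0.915, 0.745 and 0.828 CPM in clone 1. FGD3 was at 28.8, 29.8 and 29.6 CPM in clone 2 and 9.22, 7.48 and 9.7 CPM in clone 1, and TUBA4A, an alpha-tubulin, was at 16.3, 15.8 and 16.3 CPM in clone 2 and 5.09, 6.15 and 5.52 CPM in clone 1. TNXB, HS3ST3B1 and ZNF600, a zinc finger gene in a cluster of similar copies, were higher in clone 2 than in clone 1 by 1.08, 1.61 and 1.02 on the log2 scale.

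CACNA2D1, RBPMS and GREB1 were called in opposite directions in the clones, against the same WT libraries. CACNA2D1, a calcium channel subunit of the same family as CACNA2D4, was at 6.65, 6.68 and 6.59 CPM in WT, 17.4, 17.4 and 14.9 CPM in clone 2 and 0.769, 1.27 and 1.35 CPM in clone 1. RBPMS, the paralogue of RBPMS2, was at 1.85, 2.39 and 2.03 CPM in WT, 0.994, 0.747 and 0.865 CPM in clone 2 and 71.6, 70.5 and 72.1 CPM in clone 1. GREB1, known as a target of oestrogen receptor, was at 1.2, 1.19 and 1.79 CPM in WT, 0.461, 0.614 and 0.468 CPM in clone 2 and 10.4, 11.6 and 9.7 CPM in clone 1. The clones differed by 3.84 (adjusted p 3.35e-25), -6.35 (adjusted p 1.78e-38) and -4.36 (adjusted p 4.02e-23). Without regard to strand the log2 fold change of RBPMS in clone 2 against WT was -0.23 and it was not called. In SMAD1, a transducer of BMP signals that was looked up after its values were seen, the loss was on the other side: 5.95, 6.9 and 6.29 CPM in WT, 7.35, 8.91 and 8.49 CPM in clone 2 and 0 counts in clone 1.

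**Figure D4:**
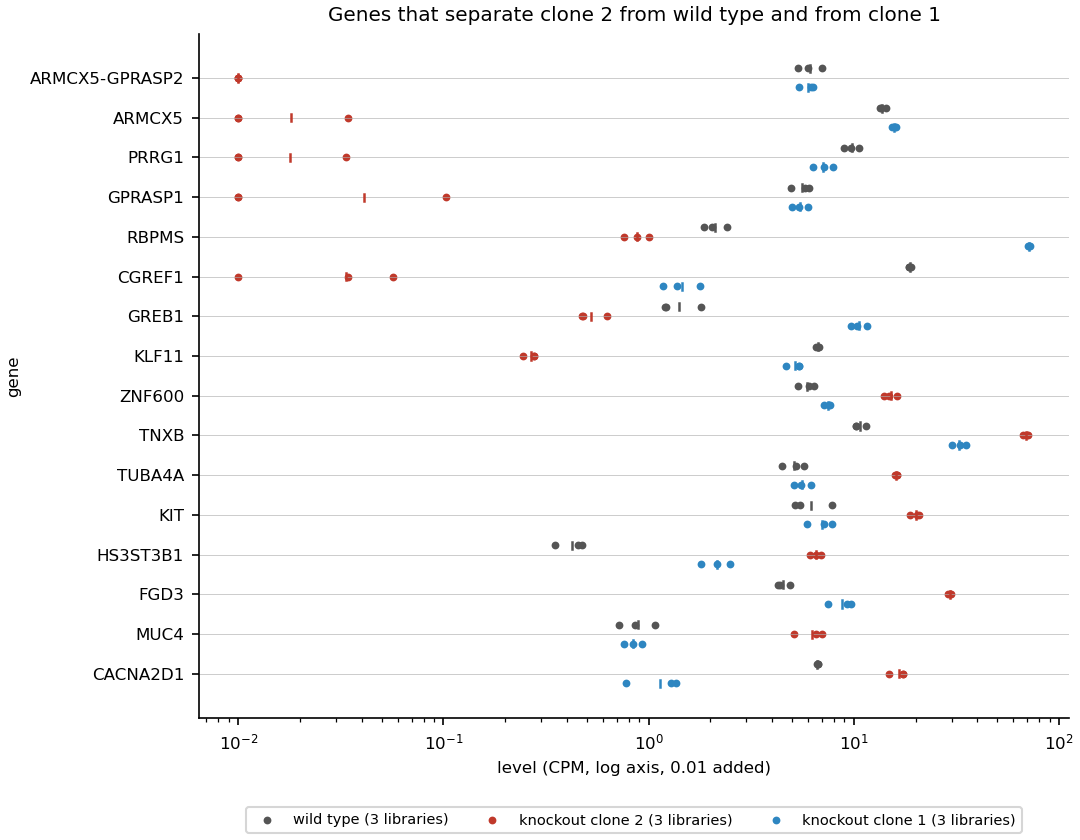
Levels in CPM (log x axis, 0.01 added) of the 8 genes most below and the 8 most above clone 1 among genes that reach 5 CPM in some group and were called in the same direction against WT, with 1 point for each library and a short line at each group mean. Clone 2 points lie apart from WT and from clone 1 in all 16 genes, and CACNA2D1, RBPMS and GREB1 have WT between the clones.

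Genes of T and NK cells, which KG-1a expresses in part, fell as a group. Of 24 tested members of a list of T and NK cell genes, 17 fell and 1 rose, against 16.1% and 14.4% of all genes. Called lower were 8 of them, against 4.13% of all genes. The median log2 fold change was -0.47. CD3E, part of the antigen receptor complex of T cells, was at 52.1, 51.8 and 54.7 CPM in WT and 18.7, 18.7 and 17.8 CPM in clone 2 (log2 fold change -1.52 ± 0.056 (SE), adjusted p 9e-25). CD247, the zeta chain, went from 29.2, 26.7 and 27.9 to 6.62, 8 and 5.19 CPM (log2 fold change -2.08 ± 0.098 (SE), adjusted p 1.37e-17). GZMA, a granule protease, went from 14.7, 14.6 and 14.8 to 1.75, 1.97 and 1.66 CPM (log2 fold change -3.04 ± 0.13 (SE), adjusted p 5.73e-23). KLRB1 (CD161) went from 6.83, 6.61 and 7.61 to 0.945, 1.07 and 1.12 CPM. These 4 genes were called lower, and in each the WT and clone 2 libraries lay apart, as in 40.5% of all tested genes. The summed level of the list was 1580 to 1640 CPM in WT and 1150 to 1180 CPM in clone 2; the log2 fold change of CD7, an early T lineage antigen, was -0.13 (adjusted p 0.0742). Whether a different mix of cells plays a part was not tested. In bulk RNA, fewer cells that express a gene and less of its RNA in each cell cannot be told apart.

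The secreted signals of immune cells fell too. Of 26 tested chemokines, cytokines and TNF-family ligands, 17 fell and 2 rose, 9 were called lower, and the median was -0.51. The shares over all tested genes were 16.1% for falls, 14.4% for rises and 4.13% for genes called lower. TNFSF14 (LIGHT), a ligand of the lymphotoxin system, went from 102, 102 and 103 to 29.6, 25.7 and 27.8 CPM (log2 fold change -1.88 ± 0.05 (SE), adjusted p 3.76e-28). LIF, a cytokine, went from 8.69, 7.56 and 8.1 to 1.14, 0.854 and 0.958 CPM (log2 fold change -3.03 ± 0.16 (SE), adjusted p 2.12e-19). XCL2, a lymphocyte chemokine with a near-identical neighbour, went from 37.5, 40.3 and 38.4 to 12, 13.4 and 12.7 CPM, and LTB, lymphotoxin beta, from 56.9, 54.4 and 57.3 to 23.2, 26.1 and 26.6 CPM. All 4 were called lower, with no overlap between the groups, as in 40.5% of all tested genes. CCL5, picked after its values were seen, was at 4.96, 4.61 and 5.08 CPM in WT and 0.194, 0 and 0.0935 CPM in clone 2 (log2 fold change -5.58 ± 0.32 (SE), adjusted p 1e-16). In the test between the clones 12 of these genes were higher in clone 2 and 6 lower, against 2762 and 2593 of all 20655 tested genes.

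Interferon-stimulated genes and the class I presentation pathway, which interferon also induces, fell by less but across most members. Of 43 tested interferon-stimulated genes 36 fell, 6 of them called, with a median of -0.39. Among all tested genes 16.1% fell and 4.13% were called lower. GBP1, a guanylate-binding GTPase, went from 91.9, 96.1 and 99.1 to 40.5, 45.3 and 42.3 CPM (log2 fold change -1.16 ± 0.044 (SE), adjusted p 2.82e-24). TRIM22, an antiviral ubiquitin ligase, went from 66, 69.5 and 65.8 to 27.3, 28.8 and 28.2 CPM (log2 fold change -1.26 ± 0.046 (SE), adjusted p 7.07e-25). IFI44L, induced by interferon and known as a marker of its action, went from 27.3, 27.9 and 26.7 to 11.2, 9.85 and 9.12 CPM and was called lower as well. IFITM3, which blocks viral entry, was the exception: it was called higher, from 6.31, 5.9 and 6.75 to 28.7, 31.2 and 30.5 CPM (log2 fold change 2.26 ± 0.073 (SE), adjusted p 9.5e-27).

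Of 20 class I presentation genes 19 fell, against 16.1% of all tested genes. Log2 fold changes of all members lay between -0.77 and -0.06, with a median of -0.32. HLA-B, a heavy chain, was at 654, 642 and 661 CPM in WT and 374, 418 and 405 CPM in clone 2 (log2 fold change -0.71 ± 0.039 (SE), adjusted p 6.68e-19). TAP1, the peptide transporter, went from 118, 111 and 116 to 66.9, 65.1 and 70.7 CPM (log2 fold change -0.77 ± 0.039 (SE), adjusted p 3.38e-20), and B2M, the light chain, named after its values were seen, fell by 0.41. The heavy chain genes resemble each other and vary between people, so counts can move between them. Against clone 1 14 of the 20 were higher in clone 2, HLA-B by 1.00 (adjusted p 4.19e-23) and TAP1 by 0.64 (adjusted p 5.84e-16). Among all 20655 tested genes 2762 were higher in that test. The class II transactivator CIITA fell from 2.61, 2.29 and 2.43 to 0.194, 0.107 and 0.117 CPM (log2 fold change -4.09 ± 0.31 (SE), adjusted p 2.64e-14) on its own strand, and by 0.66 on the log2 scale, not called, without regard to strand.

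**Figure D5:**
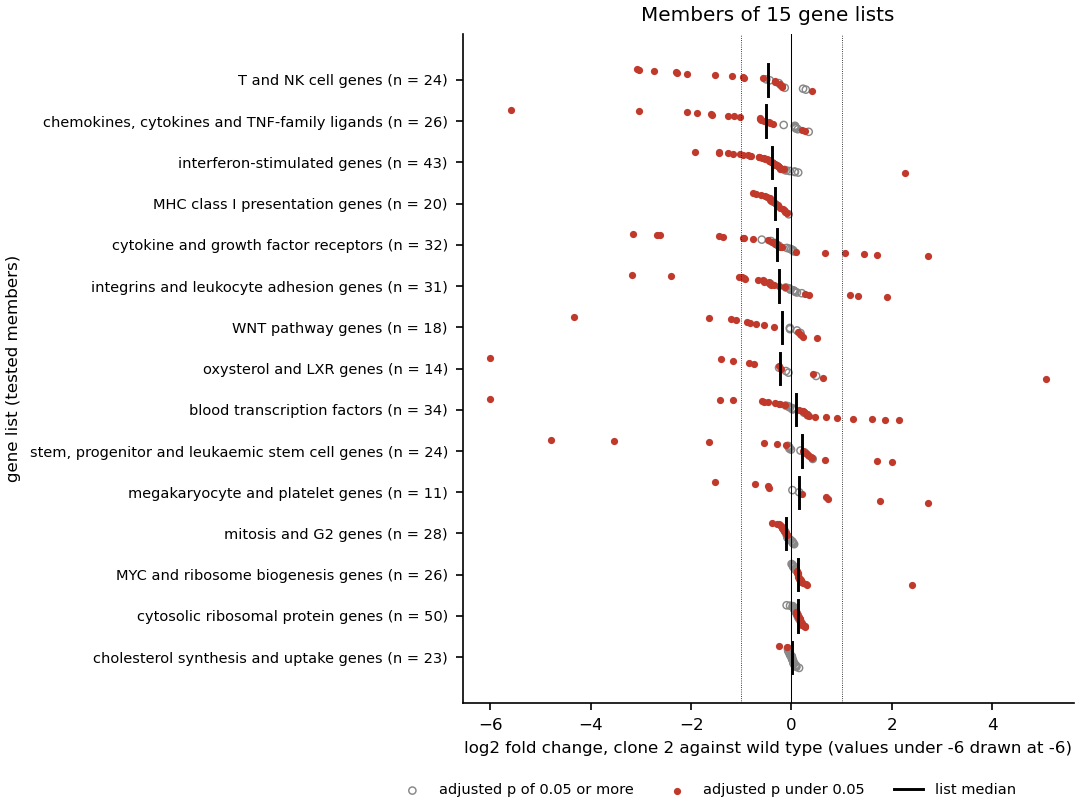
Each point is the log2 fold change of clone 2 against WT (x axis, values under -6 drawn at -6) of 1 tested member of 15 gene lists (y axis), filled where the adjusted p was under 0.05, with a black line at the list median. Immune lists lie mostly left of 0, with medians from -0.51 to -0.32 in the upper 4. The growth lists at the bottom lie in a narrow band around 0, apart from 1 member of the MYC and ribosome biogenesis list at 2.4.

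Receptors and adhesion molecules moved both ways. Of 32 cytokine and growth factor receptors 16 fell and 6 rose, 5 and 4 of them called. Over all tested genes 16.1% fell and 14.4% rose, and 4.13% and 1.83% were called in those directions. IGF1R, the receptor of insulin-like growth factor, went from 10.9, 11.4 and 11.7 to 1.43, 1.28 and 1.1 CPM (log2 fold change -3.16 ± 0.13 (SE), adjusted p 4.22e-23). IL10RA, the ligand-binding chain of the IL10 receptor, went from 17.8, 17.5 and 17.7 to 2.84, 3.23 and 2.55 CPM (log2 fold change -2.62 ± 0.1 (SE), adjusted p 4.34e-24). KIT, given above, was among those called higher. Of 31 integrins and leukocyte adhesion genes 16 fell and 5 rose. JAML, a junctional adhesion molecule of leukocytes, was called lower at -3.17 (adjusted p 1.93e-20). ESAM and PECAM1, adhesion molecules of endothelium and stem cells, were called higher at 1.91 (adjusted p 1.88e-32) and 1.17 (adjusted p 8.93e-24). ICAM3 fell by 0.98 against WT and had a log2 fold change of -0.94 (adjusted p 5.73e-24) against clone 1.

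Of 18 tested WNT pathway genes 9 fell and 5 rose (3 rose without clone 2 replicate 2), where 16.1% of all tested genes fell and 14.4% rose. NKD2, an inhibitor of WNT signalling, went from 28.6, 26.5 and 30.5 to 12.1, 12.4 and 12.5 CPM (log2 fold change -1.21 ± 0.073 (SE), adjusted p 1.32e-17), and NOTUM, an enzyme that inactivates WNT ligands, from 2.61, 2.46 and 2.56 to 0.097, 0.107 and 0.164 CPM (log2 fold change -4.33 ± 0.33 (SE), adjusted p 1.85e-14). The receptor FZD1 was called lower at -1.65 (adjusted p 4.03e-10), and LEF1, a factor that acts with beta-catenin, fell by 0.55 (adjusted p 1.06e-17). Of 14 oxysterol and LXR genes 7 fell and 3 rose. ABCA1 and ABCG1, cholesterol exporters, were called lower at -1.41 (adjusted p 2.74e-22) and -1.17 (adjusted p 2.22e-14), beside SMPDL3A and the rise of CYP7B1.

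Stem cell and lineage genes did not shift as one. Of 24 stem and progenitor genes 10 rose and 6 fell, against 14.4% and 16.1% of all tested genes, with a median of 0.21. ADGRG1 (GPR56), a surface marker of leukaemic stem cells, went from 17.9, 17.7 and 17.3 to 70.9, 69.9 and 72.6 CPM (log2 fold change 2.01 ± 0.048 (SE), adjusted p 1.82e-31), and HLF, a transcription factor of blood stem cells, from 2.22, 1.97 and 2.77 to 0.339, 0.107 and 0.14 CPM (log2 fold change -3.53 ± 0.31 (SE), adjusted p 1.75e-12). CD34 rose by 0.29 (adjusted p 4.88e-08), ERG by 0.30 (adjusted p 1.89e-09) and GATA2 by 0.23 (adjusted p 4.05e-07). CEBPA, a driver of granulocyte development, went from 41.7, 40.5 and 44.4 to 13.9, 16.1 and 17 CPM (log2 fold change -1.43 ± 0.065 (SE), adjusted p 1.05e-21). CSF3R, the receptor of granulocyte colony-stimulating factor, fell by 0.94 (adjusted p 8.62e-24).

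Erythroid and megakaryocyte genes moved both ways. Of 5 tested erythroid genes TAL1, SPTB and GATA1 were called higher, against 1.83% of all tested genes. TFRC, the transferrin receptor, fell by 0.33 (adjusted p 7.05e-09). The summed level of the list, most of it TFRC, was 828 to 862 CPM in WT and 705 to 765 CPM in clone 2. Without regard to strand SPTB was not called, and the list median went from 1.87 over 5 genes to 0.12 over 8. GATA1, the master factor of the lineage, stayed low, at 0.13, 0.244 and 0.185 CPM in WT and 0.776, 0.827 and 0.491 CPM in clone 2 (log2 fold change 1.87 ± 0.42 (SE), adjusted p 0.000421). The haemoglobin genes of the list were too rare to be tested. Of 11 megakaryocyte genes 5 rose and 4 fell, against 14.4% and 16.1% of all tested genes. F2R, the thrombin receptor, was among those called higher, from 4.1, 3.66 and 3.61 to 13.2, 11.8 and 13.5 CPM (log2 fold change 1.76 ± 0.1 (SE), adjusted p 5.81e-18), while NFE2, a factor of platelet formation, went from 11.9, 12.9 and 11 to 3.95, 4.3 and 4.21 CPM (log2 fold change -1.53 ± 0.1 (SE), adjusted p 1.85e-16). ITGA2B, the platelet integrin, rose by 0.68 (adjusted p 8.35e-19). The mast cell genes split: MS4A2, a chain of the IgE receptor, and KIT were called higher, and CPA3 and HDC, which make a granule protease and histamine, were called lower at -1.07 (adjusted p 7.59e-22) and -1.13 (adjusted p 6.29e-06).

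Changes were small in the lists of MYC and ribosome biogenesis, cytosolic ribosomal protein, and mitosis and G2 genes. The exception was 1 member of the MYC and ribosome biogenesis list called higher at 2.4. The lists of DNA replication and G1 genes are given at the end. Among all tested genes 14.4% rose and 16.1% fell against WT. At the same adjusted p, 2762 of 20655 genes were higher in clone 2 than in clone 1 and 2593 lower. Of 26 MYC and ribosome biogenesis genes 18 rose against WT (median 0.13), and 22 were higher than in clone 1. GNL3, nucleostemin, was at 171, 173 and 175 CPM in WT, 195, 208 and 204 CPM in clone 2 and 169, 173 and 166 CPM in clone 1. Of 50 cytosolic ribosomal protein genes 25 rose, with a median of 0.13, and 10 were higher than in clone 1. That last count was 23 without clone 2 replicate 1, 3 without replicate 2 and 1 without replicate 3, so it rests on single libraries. RPS2 rose by 0.27 (adjusted p 4.32e-07) and RPL12 by 0.26 (adjusted p 1.1e-06), and both have many processed copies in the genome. Of 28 mitosis and G2 genes 14 fell against WT (median -0.10), and 23 were lower than in clone 1. UBE2C, the ubiquitin-conjugating enzyme of mitotic exit, was at 37, 34.3 and 40.1 CPM in WT, 27.4, 27.6 and 29.4 CPM in clone 2 and 35.7, 36.1 and 34.5 CPM in clone 1. ECT2, which directs cytokinesis, was at 73.3, 77.3 and 81.9 CPM in WT, 64.1, 63 and 64.4 CPM in clone 2 and 76.8, 80.2 and 79.6 CPM in clone 1. Of 23 cholesterol synthesis and uptake genes 17 were higher in clone 2 than in clone 1. Against WT, EBP and LSS passed the test by a narrow margin, with log2 fold changes of -0.24 (adjusted p 0.0368) and -0.09 (adjusted p 0.035); no member of the list fell under DESeq2, with no filter, or without clone 2 replicate 2, clone 2 replicate 3 or WT replicate 3. The direction of these 4 lists was the same with the size factors of DESeq2, and the test between clones includes the clone 1 library that stood apart; without it the counts of the 4 lists between the clones were 21, 9, 23 and 13 in the order given.

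Among neighbouring pairs of called genes 213 moved alike and 18 moved apart. As 853 of the 1232 called genes were lower, more pairs alike than apart would be found without clustering too. Clustering was not tested. In 40 runs at least 3 neighbouring tested genes were called in 1 direction, 31 of them lower and 9 higher, with 138 genes in all. Overlapping and antisense transcripts share reads or a promoter, so members of a run are not independent. On chromosome 11, IL10RA, JAML and FXYD2, a regulator of the sodium pump, were called lower in 1 run, and ESAM was called higher in another. On chromosome 17 CCR7, a lymphoid homing receptor, IGFBP4 and TNS4 were called lower together, with CCR7 at 8.45, 8.56 and 7.76 CPM in WT and 3.64, 2.86 and 3.09 CPM in clone 2. In 4 of the 40 runs every gene was also called in the same direction between the clones.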

How the data were processed

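Gene expression was measured by RNA-seq of total RNA in 9 KG-1a libraries, and the 3 of clone 2 and the 3 of WT are compared here. For each library the authors deposited counts of read pairs over genes, without normalization; they were made with STAR on GRCh38, per the submitters' processing notes, and the STAR version and the annotation are not given in the sources used here. The counting of the strand that held 92.03% to 92.31% of stranded counts was used. Pairs assigned to no gene, 70.41% to 74.07% of each library, were left out. Symbols came from the authors' deposited comparison table, of which 18 columns of per-sample values were not used, and positions and gene types from GENCODE release 44.

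Counts were fitted in R 4.3.3 with edgeR 4.0.16 (filterByExpr by group, TMM scaling, robust quasi-likelihood F test) on all 9 libraries with 1 coefficient per group, which left 20655 of 60605 genes. The thresholds for a call are those of the series text. The standard error of a log2 fold change is its size over the root of F. Levels are CPM on scaled library totals; 3 counts came to 0.07 to 0.092 CPM before scaling in the 6 libraries. The fit was tested on simulated data.

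The rule named the arginine methyltransferases, the 15 largest rises and falls of at least 5 CPM, the 10 most abundant called genes each way, the 8 largest differences from clone 1 each way, the list members with the smallest adjusted p, genes lost to at most 3 counts, and runs of called neighbours; other genes were chosen after their values were seen, among them the line's markers, neighbours of named genes, PHGDH, GJA1, SMPDL3A, SNRPN, CIITA, KLF8 and PDGFRA. The 15 largest rises and falls were taken only from called genes whose WT and clone 2 libraries did not overlap. Members and lists were chosen with earlier results of these data known. A few genes are not reported here. Alternatives were DESeq2 1.42.0, its size factors, 2 filters, counts without regard to strand, a replicate block and leaving out libraries. The same-numbered libraries of clone 2 and WT correlated at 0.007 to 0.012 in their deviations from the group means, and the numbers were not taken as pairs.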

Additional observations from a re-analysis of the deposited data

Results flagged for a closer look

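Of the genes at 5 CPM or more in a group that were called between clone 2 and clone 1 and, in the same direction, between clone 2 and WT, the 8 with the largest difference each way are given here. Below clone 1, on the log2 scale, lay ARMCX5-GPRASP2 at -10.75, ARMCX5 at -10.39, PRRG1 at -9.24, GPRASP1 at -7.23, RBPMS at -6.35, CGREF1 at -5.69, GREB1 at -4.36 and KLF11 at -4.31. Above it lay ZNF600 at 1.02, TNXB at 1.08, TUBA4A and KIT, both at 1.53, HS3ST3B1 at 1.61, FGD3 at 1.74, MUC4 at 2.91 and CACNA2D1 at 3.84. The fitted values of ARMCX5-GPRASP2, ARMCX5, PRRG1, GPRASP1 and CGREF1 rest on at most 4 counts over clone 2 and are no measure of the size of the loss. These genes were selected for the difference, so their sizes are a description.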

How the results depend on the processing

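The number of genes called in clone 2 against WT was 1232 and stayed within 1.5 times that number in every alternative except the stricter filter: with at least 1 CPM in 3 libraries it was 768, with 245 higher, 523 lower and 347 called between the clones, since fewer genes were tested. DESeq2 called 1160 genes, of which 1156 were among the 1232 in the same direction. Leaving out each clone 2 or WT library in turn gave 1215 to 1282 called genes, 369 to 389 higher, 826 to 913 lower, 556 to 591 between the clones, and a PRMT2 log2 fold change between -0.9 and -0.88. With the replicate number as a block, 1228 genes were called, 1214 of them shared, and PRMT2 was at -0.89; the libraries are not known to be paired, and clone 2 replicate 1 correlated best with WT replicate 2. Without regard to strand 1005 of the 1232 calls were shared, and 14 named genes lost their call. The stricter filter left 288 of the 326 named genes tested. Among the named genes 4 that lay near 0 changed sign with 1 library left out, CD33 from -0.10 to 0.32, PRMT1 from -0.06 to 0.01, PRMT3 from -0.01 to 0.06, PRMT9 from -0.04 to 0.07. Without clone 2 replicate 2, CD33 was at -0.05. Without clone 2 replicate 3, PRMT9 was at -0.01. Without WT replicate 1, CD33 was at -0.10, PRMT1 was at 0.01, PRMT3 was at -0.01, PRMT9 was at -0.04. Without WT replicate 2, CD33 was at -0.04. In rare transcripts depth limits the calls: genes with 3 counts or fewer in clone 2 have a bound or an interval in place of a fold. A single clone gives no spread between clones.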

Other observations

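Called genes lay on each of chromosomes 1 to 22 and X, and their share differed between kinds of transcript. Over all tested genes 1.83% were called higher and 4.13% lower. The median log2 fold change was between -0.05 and 0.03 on every chromosome. Among chromosomes 1 to 22 the share called lower ran from 2.48% of tested genes on chromosome 19 to 7.92% on chromosome 21. Chromosome 21 carries PRMT2, and 0.833% of its 240 tested genes were called higher. Of 12754 protein-coding genes tested 247 (1.94%) were called higher and 577 (4.52%) lower. Of 3885 lncRNAs it was 75 (1.93%) and 187 (4.81%), and of 1882 processed pseudogenes 22 (1.17%) and 26 (1.38%).

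For the lists in this paragraph, the shares over all tested genes were 16.1% for falls and 14.4% for rises. Of 28 tested BCL2 family and apoptosis genes 12 fell and 6 rose, with the death receptor FAS from 19.3, 20.9 and 21 to 7.71, 6.8 and 6.41 CPM (log2 fold change -1.55 ± 0.084 (SE), adjusted p 5.25e-19) and CASP1, the inflammatory caspase, called lower as well. BCL2L11 and BMF, both promoters of apoptosis, fell by 0.53 and 0.64. Of 17 tested extracellular matrix genes and proteases 9 fell and 3 rose, with the metalloprotease ADAMTS1 from 19.7, 22.5 and 20.7 to 6.38, 8.67 and 7.32 CPM in clone 2 and 1.13, 0.652 and 0.767 CPM in clone 1, and the protease PLAU called higher at 1.15 (adjusted p 1.82e-10). Of 20 NOTCH pathway genes 7 fell and 5 rose (3 rose without clone 2 replicate 3 and without WT replicate 2), and the target gene HES1 rose by 0.89 (adjusted p 1.64e-13). Of 31 DNA replication genes 7 rose and 1 fell. POLE, a catalytic subunit of DNA polymerase, rose by 0.66 (adjusted p 1.98e-19). Of 23 tested G1 cyclins, kinases and CDK inhibitors 8 fell and 5 rose, and none were called. Their log2 fold changes ran from -1.08 to 0.8, and CDKN2C rose by 0.77 (adjusted p 1.55e-18).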
